A study of Mus musculus with 4 samples.

Results

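Regulatory T cells that carry Foxp3 were taken from scRNA-Seq of the lamina propria of the small intestine, the connective tissue under its epithelium, as 1,089 of 60,396 barcodes that passed the cell filters. A barcode was a member when it held at least 500 UMIs (molecules counted once each), 200 to 2,500 genes and at most 15% mitochondrial UMIs, together with at least 1 UMI of Foxp3 and at least 1 over Cd3e, Cd3d, Cd3g, Trac and Trbc2. It could hold at most 1 UMI of Cd8a and Cd8b1 together, none of Trdc, and at most 1 over the stromal genes Col1a1, Col1a2, Col3a1, Dcn and Des. The members were therefore chosen by measured Foxp3, T cell, CD8, γδ T and stromal UMIs, and levels of those genes describe the choice only. They are called Foxp3-gated T cells below.

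The mice were WT and A20ZF7, the latter carrying point mutations in the zinc finger 7 of A20 (gene Tnfaip3) that abolish its binding to M1-linked ubiquitin, as a knock-in present in every cell. All mice were 12 weeks old, lamina propria cells were enriched for T cells and innate lymphoid cells by negative selection, and 60,000 cells per genotype were collected for a 5′ kit. Each genotype is 1 library of 2 pooled mice, so no genotype difference has a replicate check or a test. WT mice carried hashtags 7 and 8, antibodies that mark a mouse with a short DNA tag, and WT cells could be assigned to mouse 1 or mouse 2 through them. The A20ZF7 mice were labelled with hashtags 9 and 10, but the antibody matrix given for A20ZF7 is identical to that of WT, so it was not used and A20ZF7 cells are 1 source. The mutation itself cannot be seen in these counts, and the genotypes rest on the labels.

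Regulatory T cells restrain other lymphocytes, and the transcription factor Foxp3 fixes their programme. They hold CTLA-4, which strips costimulatory ligands from antigen-presenting cells, the IL-2 receptor alpha chain CD25 (Il2ra), which binds the growth factor they consume but do not make, and cytokines such as IL-10. In the gut one group arises in the thymus and carries Helios (Ikzf2), often with Gata3, the IL-33 receptor ST2 (Il1rl1) and the tissue repair factor amphiregulin (Areg), whereas another is induced by the microbiota and carries Maf. A20 restrains NF-κB signalling, a pathway that T cells use when they are activated.

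WT gave 134 Foxp3-gated T cells of 22,148 passing barcodes (0.605%) and A20ZF7 gave 955 of 38,248 (2.50%). The WT cells came as 32 of mouse 1, 39 of mouse 2, 29 with both hashtags and 34 with no hashtag call. Median depth was 990 UMIs per cell in WT and 1,139 in A20ZF7, with 191,341 and 1,274,844 UMIs in all. Mitochondrial genes held 3.42% of the UMIs in both. No Foxp3-gated barcode occurred in both libraries, whereas 1,196 passing barcodes did. Levels are the UMIs of a gene per 1,000,000 UMIs of the same cells (CPM), and intervals in parentheses cover counting error only, at 95%. In the WT cells 3 UMIs correspond to 15.7 CPM, the limit used for a count of 0, and in the A20ZF7 cells to 2.35 CPM.

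The first question was how large a part of the T cells these were. Of T cells passing the same gate whatever their Foxp3, 1.97% were Foxp3-gated in WT (134 of 6,787; exact binomial interval 1.66–2.33) and 5.79% in A20ZF7 (955 of 16,495, 5.44–6.16), a ratio of 2.93 (2.45–3.51). Both WT mice lay below A20ZF7, at 1.70% (32 of 1,881) and 1.68% (39 of 2,316). Among T cells with a Cd4 UMI the shares were 3.72% (22 of 591) and 6.96% (176 of 2,528), and the ratio was 1.87 (1.21–2.89). Cd4 UMIs were sparse, since 22 of 134 WT and 176 of 955 A20ZF7 Foxp3-gated cells held one.

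Foxp3 UMIs were also found in cells that should lack them, and more often in the A20ZF7 library. CD8 T cells held a Foxp3 UMI in 2.32% of 302 WT cells (0.937–4.72) and in 5.50% of 509 A20ZF7 cells (3.69–7.85), at median depths of 926.5 and 1,255 UMIs. Those shares differed from the gate shares of 1.97% and 5.79% (median depths 792 and 919 UMIs) by less than counting error. Stromal cells held one in 0.445% of 7,194 WT cells and 3.18% of 11,990 A20ZF7 cells, at median depths of 1,174 and 1,187 UMIs. Thinning every cell to 500 UMIs left gate shares of 1.15% and 3.01%, beside 0.0974% and 1.11% for stromal cells and 0.993% and 2.18% in CD8 T cells. Shallower cells were left out of the thinned values, 21 WT and 660 A20ZF7 cells of the gate. The share with a Foxp3 UMI was thus higher in A20ZF7 in stromal cells too, and the part of free RNA in the T cell difference was not tested.

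**Figure D1:**
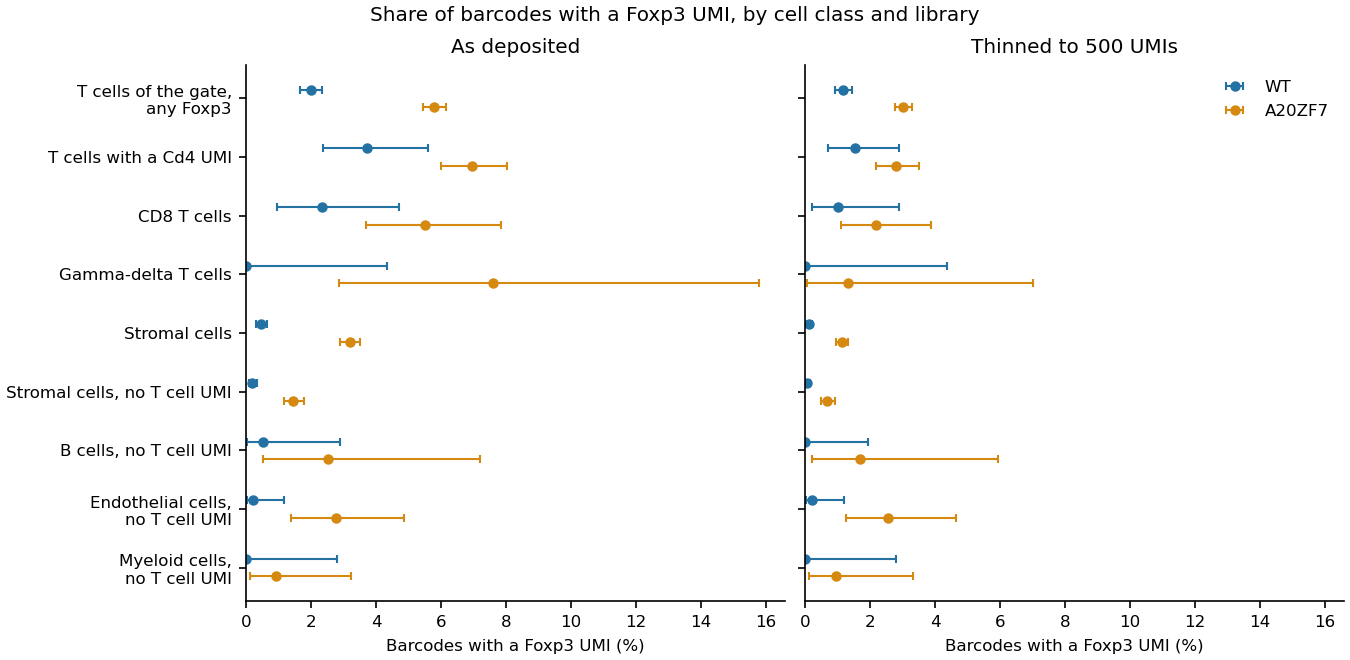
Percent of barcodes with at least 1 Foxp3 UMI in each cell class (rows) of the WT and A20ZF7 libraries, as deposited (left) and after thinning to 500 UMIs (right). Points are shares and bars are exact 95% binomial intervals. The 2 libraries differ in stromal cells (0.445% and 3.18% as deposited) as well as in T cells of the gate (1.97% and 5.79%).

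The threshold of 1 Foxp3 UMI was set beside the cells just inside and just outside it. Ikzf2 stood at 294.4 CPM in WT T cells of the gate with no Foxp3 UMI, 1,075 CPM in the 115 cells with 1 and 769 CPM in the 19 cells with 2 or more. In A20ZF7 the same steps gave 432.4 CPM, 925 CPM (832 cells) and 1,069 CPM (123 cells). Izumo1r, the folate receptor 4 of regulatory T cells, went from 21.0 to 129 and 175 CPM in WT and from 32.7 to 95.2 and 128 CPM in A20ZF7. Ctla4 went from 367 to 971 and 1,468 CPM in WT and from 906 to 1,028 and 1,162 CPM in A20ZF7. Il2ra did not follow the steps in WT, at 93.1, 160 and 69.9 CPM, and was at 104, 135 and 168 CPM in A20ZF7. Cells left out for 2 or more CD8 UMIs but with a Foxp3 UMI numbered 7 in WT and 28 in A20ZF7, with 324 and 597 CPM of Ikzf2. Cells left out for stromal UMIs numbered 29 and 364, with 518 and 567 CPM, and those left out for a Trdc UMI numbered 10 and 24, with 646 and 734 CPM. Cells with Foxp3 but no T cell UMI numbered 25 and 146, with 1,609 and 908 CPM, and cells of at least 400 but under 500 UMIs numbered 23 and 75, with 1,060 and 1,738 CPM, so these lay near or above the gated level.

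The next question was what Foxp3-gated T cells carry that other CD4 T cells do not. They were compared with Foxp3-negative Cd4 T cells, which pass the same gate with no Foxp3 UMI and at least 1 Cd4 UMI, of which there were 569 in WT and 2,352 in A20ZF7. UMIs were summed for each class in WT mouse 1, WT mouse 2 and the A20ZF7 library, and the class was tested within these 3 sources by edgeR's quasi-likelihood test with Benjamini-Hochberg adjustment. The sources are 2 mice and 1 pool of 2 mice, so p-values measure the spread between these 3 only. The A20ZF7 source holds most of the cells.

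Of 3,826 genes tested outside the gate, 5 were higher in Foxp3-gated cells (0.131%) and 2 were lower (0.0523%) at an adjusted p of 0.05. The 4 that rose with a known place in these cells were Ikzf2, Izumo1r, Tnfrsf4 and Tnfrsf9. The remaining one was Ighm, the IgM heavy chain, at a log2 fold change of 1.29 (adjusted p = 0.0277). Ighm was not called when the source was left out of the model. Those that fell were Fabp1 and Fabp2, fatty acid-binding proteins of enterocytes. The test ran with 2 residual degrees of freedom, and 153 genes had an unadjusted p under 0.05. Leaving out WT mouse 1 gave 24 higher and 21 lower genes, leaving out WT mouse 2 gave 33 and 36, and leaving out A20ZF7 gave 37 and 23. With 2 sources the fit has 1 residual degree of freedom, and calls rose although there was less replication. Passing only with a source left out, here or below, is therefore not counted as support for a gene. In simulated counts for this comparison the test recovered 36% of genes changed 2-fold and 94% of those changed 4-fold. The simulation gave all genes the same spread and each gene the same mean in every source. The real counts are more uneven, so recovery in them was not measured.

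Ikzf2, the transcription factor Helios, was at 1,141 CPM in Foxp3-gated cells of WT mouse 1, 1,123 CPM in WT mouse 2 and 944 CPM in A20ZF7. In Foxp3-negative Cd4 T cells it was at 234.9, 289.8 and 388.7 CPM. All gated values lay above all others, and the log2 fold change was 1.73 ± 0.20 (SE, 3 sources; adjusted p = 0.00139). Izumo1r was at 186, 151 and 99.6 CPM against 29.9, 29.0 and 27.9 CPM (log2 fold change 1.97 ± 0.25, adjusted p = 0.00339). It was the least abundant of the 4 in gated cells, resting on 7, 9 and 127 UMIs, and again the classes did not overlap. With a Cd4 UMI required in both classes, which left 6, 7 and 176 gated cells, Ikzf2 no longer passed (log2 fold change 1.08, adjusted p = 0.471) and Izumo1r was not among the genes tested. Ikzf2 was also read in 10.7% of WT and 21.7% of A20ZF7 stromal cells, against 57.5% and 58.0% of the gated cells.

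Tnfrsf4 (OX40) and Tnfrsf9 (4-1BB) are costimulatory receptors of the TNF receptor family that regulatory T cells carry at rest. Tnfrsf4 stood at 584, 419 and 363 CPM in the gated cells of WT mouse 1, WT mouse 2 and A20ZF7, against 107, 95.2 and 159 CPM (log2 fold change 1.57 ± 0.23, adjusted p = 0.00855). Tnfrsf9 stood at 584, 369 and 395 CPM against 89.7, 78.7 and 168 CPM (1.63 ± 0.24, adjusted p = 0.00855). Both were higher in every gated source than in any Foxp3-negative one. Neither passed with a Cd4 UMI required in both classes, at 0.93 (adjusted p = 0.999) and 1.13 (adjusted p = 0.635). Their relative Tnfrsf18 (GITR) was at 451, 235 and 187 CPM against 85.4, 108 and 91.4 CPM and missed the threshold (1.26 ± 0.24, adjusted p = 0.0503).

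The other chosen markers did not pass. Ctla4 was at 1,540, 838 and 1,046 CPM against 389, 576 and 1,001 CPM (log2 fold change 0.75 ± 0.26, adjusted p = 0.751). The gap was wide in WT mouse 1 and nearly closed in A20ZF7, where Foxp3-negative cells held about as much. Ctla4 passed with A20ZF7 left out (1.23, adjusted p = 8.9e-06) and where the comparison cells needed no Cd4 UMI (0.97, adjusted p = 0.00391), and not with either WT mouse left out. Il2ra was at 79.6, 168 and 140 CPM against 85.4, 78.7 and 93.7 CPM (0.59 ± 0.24, adjusted p = 1.0) and was below the Foxp3-negative level in WT mouse 1. Of the 4 markers besides Foxp3, 2 rose and 2 did not pass, so beyond the gate itself the label of regulatory T cells rests here on Ikzf2 and Izumo1r, and on Ctla4 in the WT mice.

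**Figure D2:**
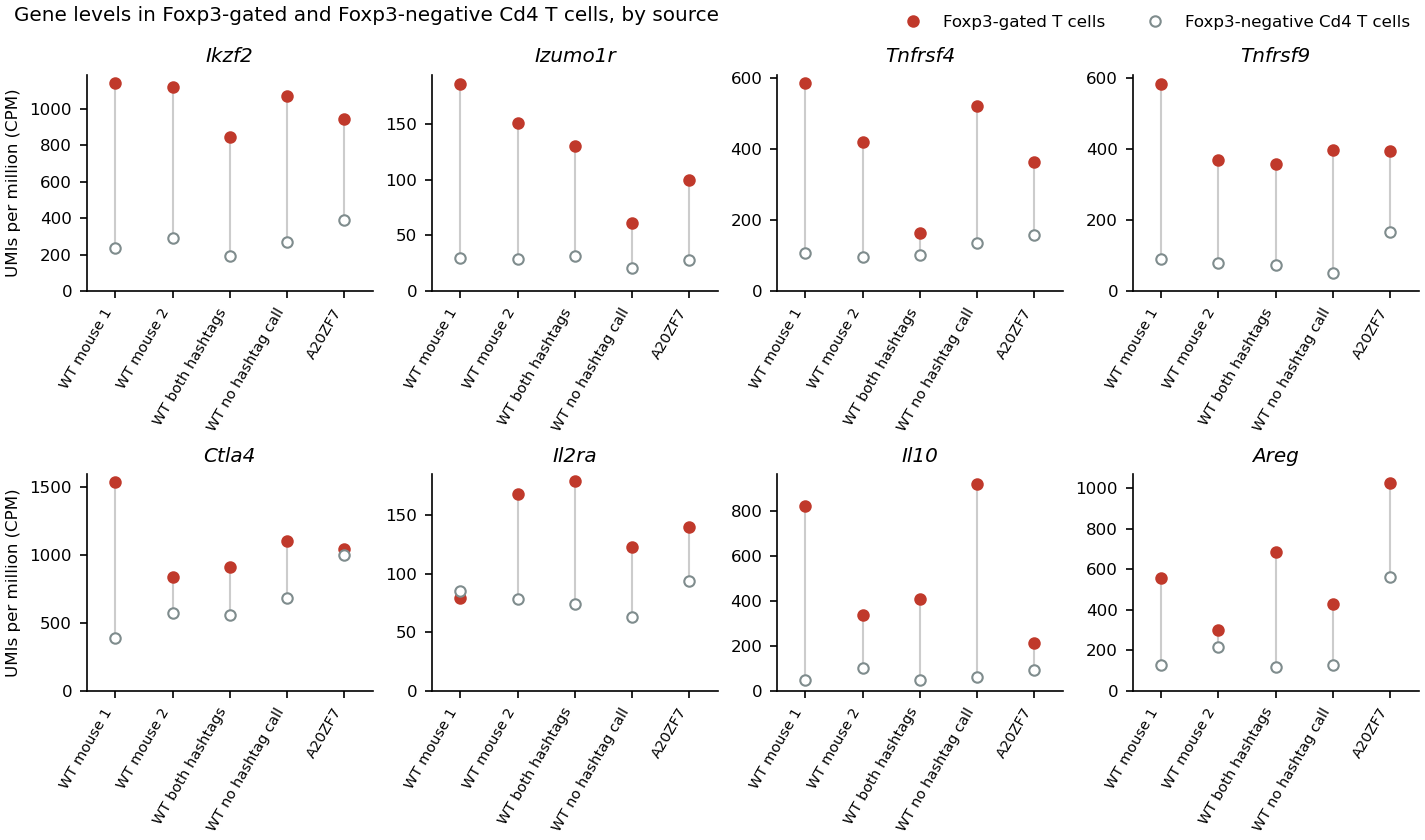
Levels in CPM (vertical axes, from 0) of 8 genes in Foxp3-gated T cells (filled) and Foxp3-negative Cd4 T cells (open) of WT mouse 1, WT mouse 2, WT cells with both hashtags, WT cells with no hashtag call and the A20ZF7 library. Lines join the 2 classes of a source. Ikzf2, Izumo1r, Tnfrsf4 and Tnfrsf9 are higher in the gated cells of every source, while Ctla4 is at 1,046 and 1,001 CPM in A20ZF7.

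A list of 20 genes known for regulatory T cells had 14 tested members, of which 4 rose (the 4 above), none fell and 13 had a log2 fold change above 0. Its median log2 fold change was 1.01, against -0.00849 over all genes tested, of which 48.1% were above 0. Members that just missed the threshold, all at an adjusted p of 0.0503, were Cd83 (1.66 ± 0.32) and Itgb8 (1.92 ± 0.37), the integrin chain that releases active TGF-β, with Tnfrsf18. Itgb8 was at 79.6, 50.3 and 67.5 CPM in the gated cells against 4.27, 0 and 20.4 CPM, so it was nearly absent from WT Foxp3-negative cells. Cd83 and Tnfrsf18 passed with any one of the 3 sources left out, at adjusted p of at most 0.00433 and 0.0238. Lrrc32, which holds latent TGF-β on the surface, was at 26.5, 16.8 and 32.9 CPM and too low to be tested.

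Among suppressive effector genes none of 9 tested passed, at a median log2 fold change of 0.40. Il10, the anti-inflammatory cytokine, was at 823, 335 and 212 CPM against 47.0, 99.4 and 91.7 CPM (1.81 ± 0.34, adjusted p = 0.0503). Every gated value lay above every Foxp3-negative one, and the spread among the gated sources was wide. Il10 passed with WT mouse 1 left out (adjusted p = 0.00235), with WT mouse 2 left out (6.22e-08) and with A20ZF7 left out (3.66e-11). Each of these fits has 1 residual degree of freedom. Nt5e, the ectoenzyme CD73 that makes adenosine, was at 451, 201 and 175 CPM against 128, 66.3 and 144 CPM (0.72 ± 0.28, adjusted p = 0.976). It passed with A20ZF7 left out (1.67, adjusted p = 0.00776). Gzmb, a granzyme, was at 398, 83.8 and 527 CPM against 294.7, 195 and 324 CPM and did not pass.

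Of genes of thymic or ST2-type tissue regulatory T cells, 1 of 10 tested (Ikzf2) rose, and the median was 0.54. Areg was at 557, 302 and 1,024 CPM in gated cells against 128, 215 and 561 CPM, higher within each source, and missed the threshold (1.02 ± 0.22, adjusted p = 0.0957). It passed without WT mouse 2 (adjusted p = 0.0118) or A20ZF7 (0.0259), and not without WT mouse 1 (0.216). Il1rl1 (ST2) was at 292, 50.3 and 49.4 CPM against 0, 12.4 and 22.4 CPM (1.65 ± 0.51, adjusted p = 0.547). Klrg1, an inhibitory receptor of terminally differentiated cells, was at 345, 184 and 45.5 CPM against 47.0, 91.1 and 24.6 CPM (1.23 ± 0.31, adjusted p = 0.262). Gata3 was at 398, 419 and 211 CPM against 184, 149 and 149 CPM (0.80 ± 0.22, adjusted p = 0.408). With A20ZF7 left out Klrg1 (1.84, adjusted p = 0.00835) and Gata3 (1.3, adjusted p = 0.0154) passed, and with WT mouse 2 left out Klrg1 (adjusted p = 0.0486) and Il1rl1 (adjusted p = 0.00381) passed.

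Type 3 genes lay on the other side. None of 10 tested genes of type 3 immunity passed, their median was -0.57 and 2 were above 0. Il17a was at 159, 0 and 1,199 CPM in gated cells against 205, 315 and 2,192 CPM (-1.24 ± 0.39, adjusted p = 0.616). Il22, whose reads can be split with the near-identical copy Iltifb, was at 159, 33.5 and 344 CPM against 252, 406 and 654 CPM (-1.16 ± 0.25, adjusted p = 0.0976). Both were lower in gated cells within each source. Il22 passed without WT mouse 1 (adjusted p = 0.046) and without A20ZF7 (-1.98, adjusted p = 0.00309), and Il17a without A20ZF7 (-2.04, adjusted p = 0.0122). Among helper effector genes, Cd40lg, the ligand by which helper cells license B cells, was at 26.5, 184 and 142 CPM against 282, 439 and 251 CPM (-1.05 ± 0.24, adjusted p = 0.139). None of the 6 tested in that list passed, and its median was -1.01. Cd40lg passed with WT mouse 1 (adjusted p = 0.0147), WT mouse 2 (0.0184) or A20ZF7 (0.00776) left out.

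No member passed in the other lists of the pathway. The 18 tested genes of the A20 and NF-κB axis had a median of 0.14, and Tnfaip3 itself was at 1,301, 1,258 and 1,343 CPM against 1,264, 1,391 and 1,327 CPM (-0.06 ± 0.14). The 12 genes of the IL-2 receptor and STAT5 axis had a median of 0.20, the 11 of gut homing and retention 0.13, the 7 of central or resting cells -0.11, the 9 of cell division -0.28 and the 10 of stress and immediate early genes -0.14. Of 12 costimulatory and checkpoint genes, 2 rose (Tnfrsf4 and Tnfrsf9), at a median of 0.70.

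**Figure D3:**
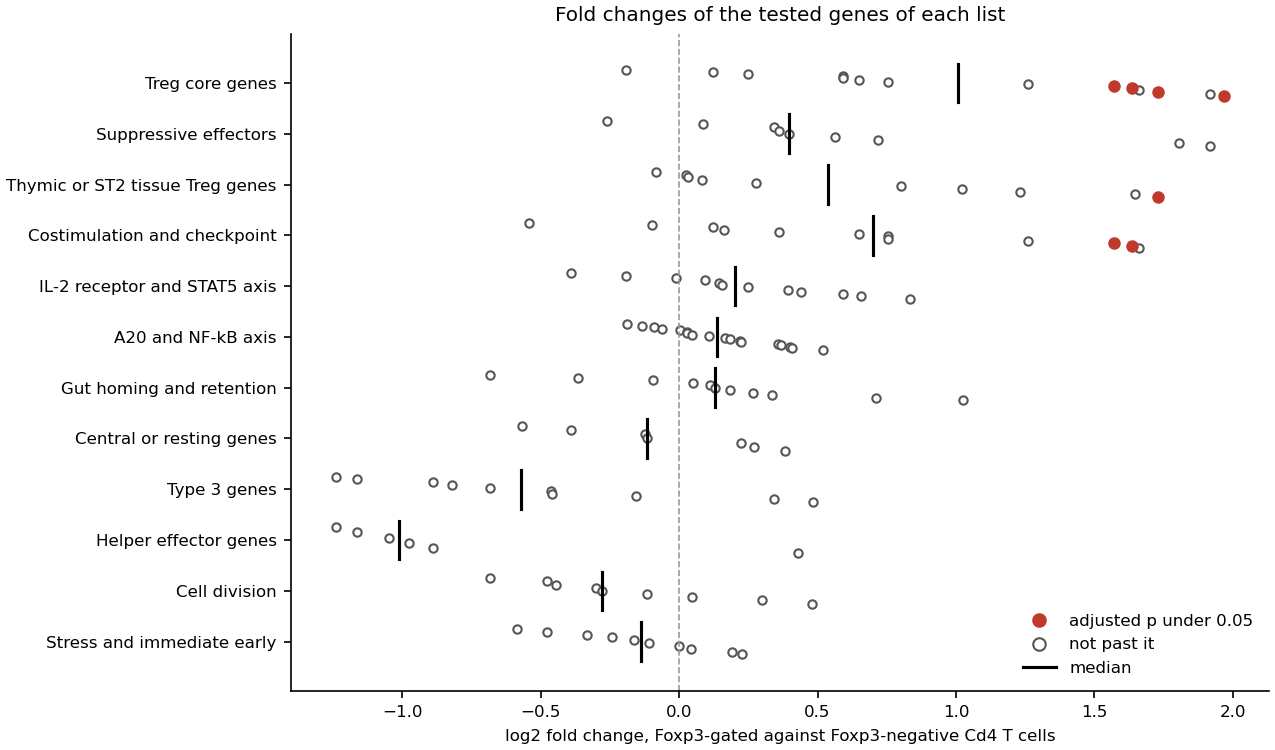
log2 fold change between Foxp3-gated and Foxp3-negative Cd4 T cells (horizontal axis) of the tested genes of 12 lists, edgeR over 3 sources. Each point is a gene, filled where the adjusted p is under 0.05, and the vertical bar is the median of the list. The list of regulatory T cell genes is centred at 1.01 and the helper effector genes at -1.01, with all tested genes at -0.00849.

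Markers of other cells were found in gated cells at levels that differed widely between sources. The summed level of 7 epithelial genes was 239 CPM in WT mouse 1, 117 in WT mouse 2, 407 in WT cells with both hashtags, 8,370 in WT cells with no call and 71.4 in A20ZF7, with Fabp1 as the most abundant gene in the last 2. Most of the no-call level came from 1 WT cell with 5,460 UMIs and 2,288 genes, which held 128 of the 143 Fabp1 UMIs. The lower Fabp1 of gated cells in the class comparison (-2.53 ± 0.36, adjusted p = 0.00852) rested on few Foxp3-negative cells, since 234 of 388 UMIs in WT mouse 1 and 54 of 62 in WT mouse 2 were in a single cell. With WT taken as 1 source the fall of Fabp1 was not called (-0.64, adjusted p = 1.0). The 5 plasma cell genes summed to 1,380, 38,916 and 9,139 CPM in the gated cells of WT mouse 1, WT mouse 2 and A20ZF7, against 27,603, 17,320 and 8,689 CPM in Foxp3-negative cells. They were led by Igha, at 929, 28,454 and 6,920 CPM in the gated cells of WT mouse 1, WT mouse 2 and A20ZF7. Of its 1,781 WT UMIs, 993 were in 1 cell. The 8 genes of CD8 T and NK cells, led by Ccl5, summed to 2,761, 1,442 and 6,354 CPM in gated cells and 2,669, 3,242 and 6,068 CPM in Foxp3-negative cells. In A20ZF7 that exceeds the 5,182 CPM of the 20 regulatory T cell genes, and the part of these other cells in the results was not tested. All 5 mast cell genes were at 0 in WT gated cells. B cell genes summed to 94.1 CPM in WT and 74.5 CPM in A20ZF7, with 3 of 6 genes at 0 in WT.

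Surface antibodies gave a second readout of the WT cells, which the gate did not use. Antibody UMIs of 138 antibodies were summed per class in the 2 WT mice and tested by edgeR with the mouse as a block and 1 residual degree of freedom. An antibody is counted through its tag, of which those the result turns on and those of the mice are given here, 5′ to 3′ and in lower case throughout.
CD73: acacttaacgtctgg
KLRG1: gtagtaggctagacc
CD4: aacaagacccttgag
CD25: accatgagacacagt
hashtag 7: gagtctgccagtatc
hashtag 8: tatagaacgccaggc

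CD73 and KLRG1 rose, 2 of 138 antibodies (1.45%), and none fell (0%). CD73 was at 94.996 and 102.6 per 10,000 antibody UMIs in Foxp3-gated cells of mouse 1 and mouse 2, against 65.1 and 70.7 in Foxp3-negative Cd4 T cells (log2 fold change 0.55 ± 0.03, edgeR adjusted p = 0.0317). KLRG1 was at 40.4 and 42.8 against 27.3 and 28.8 (0.57 ± 0.04, adjusted p = 0.0477). Both mice showed both differences. Their transcripts, Nt5e and Klrg1, were higher in gated cells of both mice. As given above, neither passed over all 3 sources, and both passed in the test of the 2 WT mice alone. Klrg1 also passed with WT mouse 2 left out and A20ZF7 included. At an unadjusted p under 0.05 stood 13 antibodies.

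CD4 antibody was at 24.9 and 29.3 per 10,000 in Foxp3-gated cells and at 29.0 and 30.0 in Foxp3-negative Cd4 T cells, against 12.9 and 15.4 in CD8 T cells and 8.66 in stromal cells. The CD4 antibody count of gated cells was thus near that of cells chosen by a Cd4 UMI, although few gated cells held the transcript. CD8a antibody was at 15.5 and 16.0, against 25.5 and 28.4 in CD8 T cells. CD25 antibody was at 4.36 and 4.03 against 4.12 and 3.51 (adjusted p = 0.718), and TCRchain, the antibody to the T cell receptor, at 24.5 and 29.7 against 25.1 and 27.6 (adjusted p = 0.729). The control antibodies IgG1Ctrl, IgG2aCtrl and IgG2bCtrl were at 27.2 and 27.4, 26.0 and 26.5, and 10.2 and 10.1 in gated cells. CD4 and TCRchain lay below IgG1Ctrl and IgG2aCtrl in mouse 1 and above them in mouse 2. CD25 lay below every control in both mice, so no CD25 protein can be read from it. Each gated sum rests on 73,477 antibody UMIs in mouse 1 and 99,308 in mouse 2.

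**Figure D4:**
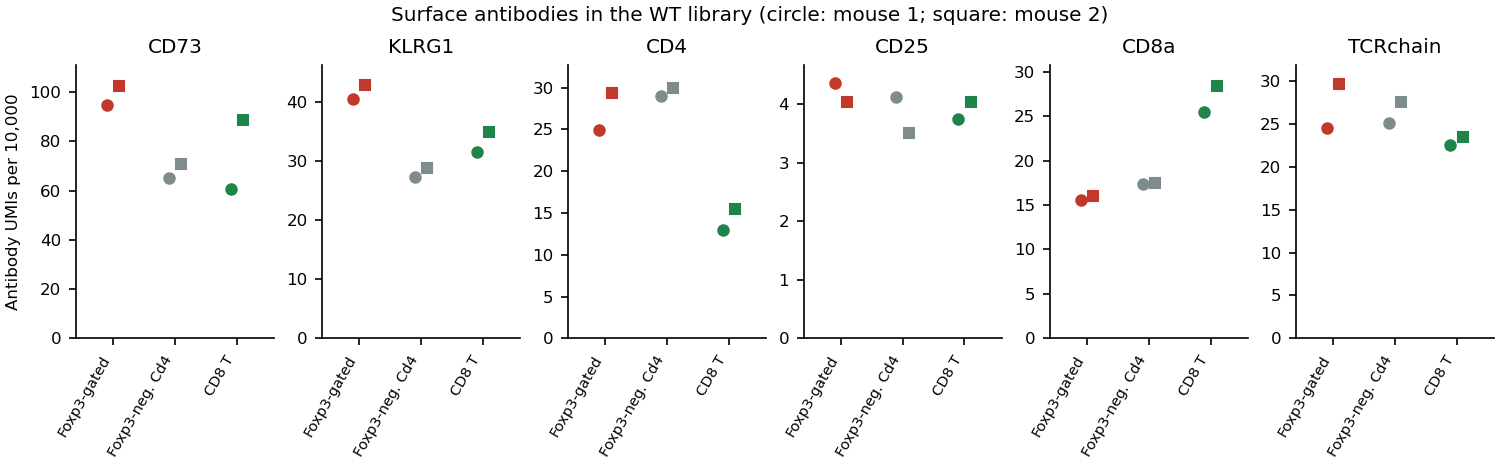
Antibody UMIs per 10,000 (vertical axes, from 0) for 6 antibodies in Foxp3-gated, Foxp3-negative Cd4 and CD8 T cells of the WT library. Circles are mouse 1 and squares mouse 2. CD73 and KLRG1 are higher in gated than in Foxp3-negative cells of both mice, and CD4 separates both from CD8 T cells.

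Types within the Foxp3-gated cells were read from UMIs of Ikzf2. It was found in 57.5% of WT cells (77 of 134, 48.6–66.0) and 58.0% of A20ZF7 cells (554 of 955, 54.8–61.2). Thinned to 500 UMIs, 39.6% and 35.4% still held one. The libraries differed by less than counting error in both readings. Foxp3-negative Cd4 T cells held an Ikzf2 UMI in 20.9% and 31.4%, and stromal cells in the shares given above.

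Cells with Ikzf2 and cells without it differed in other genes, and the difference between the libraries was not tested. In A20ZF7 the 554 cells with an Ikzf2 UMI, against the 401 without, had 1.90 times the Tnfrsf4 (438 against 230 CPM, 1.53–2.39), 1.57 times the Areg (1,177 against 752 CPM, 1.38–1.77), 2.13 times the Itgb8 (1.25–3.81) and 4.18 times the Lrrc32 (1.64–13.6). They had 0.61 times the Il17a (976 against 1,595 CPM, 0.55–0.68) and 0.67 times the Il22 (0.55–0.81). In WT the 77 cells with Ikzf2 had 0.26 times the Gzmb (151 against 593 CPM, 0.14–0.45), 0.45 times the Maf (559 against 1,253 CPM, 0.32–0.62) and 0.54 times the Il10 (438 against 813 CPM, 0.36–0.81) of the 57 without. In A20ZF7 the ratios of Gzmb (1.01, 0.86–1.19), Il10 (0.92, 0.71–1.18) and Maf (0.87, 0.77–0.99) were nearer 1. In WT the intervals of Tnfrsf4 (1.21, 0.71–2.13) and Areg (1.19, 0.74–1.94) held both 1 and the A20ZF7 value. In both libraries the interval cleared 1 on the same side for Tnfrsf9 (1.76 in WT and 1.59 in A20ZF7), Cd83 (2.10 and 1.84), Maf, Il17a (0.16 and 0.61) and Ccl20 (0.074 and 0.57), a chemokine for cells with CCR6. The WT ratio of Ccl20 rested on 1 against 6 UMIs. That of Il17a rested on 7 against 19 UMIs, held by 4 cells with 10 UMIs in 1 of them. Cells are not replicates, so these are descriptions of the 2 libraries, and cells with a UMI were also deeper (median 1,211 against 827 UMIs in WT).

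Il10 was held by 40.3% of WT gated cells (54 of 134, 31.9–49.1) and 20.1% of A20ZF7 gated cells (192 of 955, 17.6–22.8), against 5.10% and 8.89% of Foxp3-negative Cd4 T cells and, among stromal cells, 0.834% and 4.68%. At 500 UMIs per cell the gated shares were 21.6% and 11.3%. Cells with Il10 had 1.53 times the Maf in WT (1.09–2.14) and 1.27 times in A20ZF7 (1.1–1.47), and 2.39 and 1.56 times the Gzmb. The gated cells were 1.97% of WT T cells of the gate but held 25.8% of their Il10 UMIs (106 of 411), and in A20ZF7 they were 5.79% and held 15.4% (270 of 1,757). For Itgb8 the parts were 25% and 18.4%, and for Izumo1r 14.6% and 18.7%. Il17a had 1.35% and 4.75% of its T cell UMIs in gated cells, below their 2.58% and 7.04% of all UMIs.

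The last question was how the Foxp3-gated cells of A20ZF7 differed from those of WT. Of 1,736 genes that reached 100 CPM and 20 UMIs in one of the genotypes, 52 were more than 2-fold higher in A20ZF7 (3.0%) and 56 more than 2-fold lower (3.23%), and the median log2 ratio was 0.03. There is no test, and every value compares 1 library with 1 library. Of the same 1,736 genes, chosen by their levels in gated cells, 51 were past 2-fold higher and 20 past 2-fold lower in Foxp3-negative Cd4 T cells. No floor was set on the levels there, so these counts cannot be set directly against the gated ones.

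The marker genes lay near a ratio of 1 in the cells as gated. Ikzf2 had an A20ZF7 to WT ratio of 0.92 (0.79–1.07), Ctla4 of 1.0 (0.86–1.17), Il2ra of 0.95 (0.64–1.48), Izumo1r of 0.73 (0.48–1.17), Tnfrsf4 of 0.94 (0.73–1.22) and Tnfrsf9 of 0.96 (0.75–1.23). With 2 or more Foxp3 UMIs required, which left 19 WT cells, the log2 ratio was 0.48 for Ikzf2, -0.34 for Ctla4 and 1.27 for Il2ra. Over all 1,736 genes only 3.0% were past 2-fold higher and 3.23% lower. Near that share, none of the 12 regulatory T cell genes that met the floor was past 2-fold in either direction. Their median log2 ratio was -0.07. In Foxp3-negative cells the median of the same genes was 0.62, with Ctla4 at a ratio of 1.90 (1.71–2.11) and Tnfrsf9 at 2.16 (1.65–2.87). Tnfaip3, the mutated gene, was at 1,359 CPM in WT and 1,343 CPM in A20ZF7 (0.99, 0.87–1.13). None of 13 genes of the A20 and NF-κB axis was past 2-fold, again near the share over all genes. Nfkb1, an NF-κB subunit, was at 617 and 886 CPM (1.44, 1.19–1.75), with WT mouse 1 at 743 and WT mouse 2 at 436 CPM, and had a ratio of 1.87 (1.66–2.11) in Foxp3-negative cells.

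Il10 was lower in the A20ZF7 gated cells. It was at 823 CPM in WT mouse 1, 335 in WT mouse 2, 407 in WT cells with both hashtags and 920 in those with no call, and at 212 CPM in A20ZF7, below each of the 4 WT sets. The sets all come from 1 library of 2 mice and do not replicate the genotype difference. The ratio of A20ZF7 to all WT cells was 0.38 (0.30–0.48). Gzmb went the other way, from 287 to 527 CPM (1.83, 1.39–2.46). With 2 or more Foxp3 UMIs required, Il10 was at 559 CPM in 19 WT cells and 325 CPM in 123 A20ZF7 cells. Less Il10 per cell and more gated cells that are not regulatory T cells cannot be told apart here.

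Of genes of thymic or ST2-type tissue regulatory T cells, 10 met the floor. Areg and Batf were past 2-fold higher in A20ZF7, and Il1rl1 and Klrg1 past 2-fold lower. The median log2 ratio of the list was -0.16, and over all genes 3% were past 2-fold higher and 3.23% lower. Gata3 was lower but not past 2-fold. Klrg1 was at 167 CPM in WT and 45.5 CPM in A20ZF7 (0.27, 0.17–0.43), Il1rl1 at 105 and 49.4 CPM (0.47, 0.28–0.83) and Gata3 at 361 and 211 CPM (0.59, 0.45–0.77). The WT Il1rl1 level was carried by mouse 1 (292 CPM), with mouse 2 at 50.3 CPM, near A20ZF7, and WT cells with no call held no Klrg1 UMI. Areg was higher in A20ZF7, at 1,024 against 496 CPM (2.06, 1.67–2.57), and so was Batf, a transcription factor of effector T cells, at 202 against 99.3 CPM (2.04, 1.28–3.44). Areg was held by 26.1% of WT and 50.6% of A20ZF7 gated cells. Each of the 4 WT sets of cells, all from 1 library of 2 mice, lay below A20ZF7 in Areg, between 302 and 684 CPM. In stromal cells Areg was higher as well, at 253 against 70.3 CPM. Foxp3-negative Cd4 T cells held 128 and 215 CPM of Areg in the WT mice and 561 CPM in A20ZF7. Of Batf they held 94.0 and 58.0 CPM in the WT mice and 207 CPM in A20ZF7.

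Cytokines of type 3 immunity, which drive neutrophil recruitment and epithelial defence, were higher in A20ZF7. Il17a was at 136 CPM in WT and 1,199 CPM in A20ZF7 (8.83, 6.0–13.6), and all 26 WT UMIs were in 4 cells. Il22 was at 73.2 and 344 CPM (4.70, 2.77–8.66). Il17f had no UMI in WT and 215 in A20ZF7 (169 CPM), at least 10.8-fold higher against the limit of 3 UMIs over the WT cells. The ratio of Il17a was 6.79 in Foxp3-negative cells, and in stromal cells, which are not known to make it, Il17a went from 54.5 to 719 CPM. An Il17a UMI was held by 2.99% of WT and 37.7% of A20ZF7 gated cells, beside 2.38% and 25.4% of stromal cells and 13.0% and 61.2% of Foxp3-negative Cd4 T cells. The WT share lay near the stromal share, with 10 of the 26 UMIs in 1 cell, and the part of free RNA in either share was not tested.

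The remaining genes of the ranked ends were of other kinds. Pclaf (7.20, 2.42–35.3) and Top2a (4.3, 1.94–11.9), which act in DNA replication and mitosis, were higher in A20ZF7, resting on 3 and 6 WT UMIs. With Mki67 (2.50, 1.23–5.90), on 8 WT UMIs, they made 3 of 6 cell division genes past 2-fold higher, against 3.0% over all genes. WT mouse 1 went the other way for Mki67, at 186 CPM against 104 CPM in A20ZF7, while WT mouse 2 was at 16.8 CPM. The division list summed to 3,079, 1,274 and 2,092 CPM in these 3 sources. Ndufb4 (19.4) and Zc3h7a (5.16) had like ratios in Foxp3-negative cells (19.1 and 4.76) and were higher in A20ZF7 stromal cells too. The 2 libraries were counted with gene lists of 33,696 and 32,285 IDs, and for these genes list and genotype cannot be told apart. All 162 Cfd UMIs of A20ZF7 were in 1 cell. The lowest ratios were Pigr, Rbp2, Reg3b, Fabp1, Apoa1, Apoa4, Reg1 and Prap1, all genes of gut epithelium and between 0.014 and 0.045. The single WT cell described above held most of their UMIs, and without it at most 2 WT UMIs were left of Reg3b, Reg1 and Apoa4, under the limit of 3. Without it the ratio was 0.60 for Rbp2, 0.29 for Fabp1, 0.13 for Pigr, 0.11 for Prap1 and 0.068 for Apoa1.

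Stress and immediate early genes were past 2-fold lower in A20ZF7 in 5 of 10 cases and higher in none. Over all genes 3.23% were lower and 3.0% higher. Fos was at 1,160 and 561 CPM (0.48, 0.42–0.56) and Hspa1a, a heat shock gene whose reads can be split with Hspa1b, at 512 and 197 CPM (0.38, 0.30–0.49). Their median log2 ratio was -0.86 in gated and -0.52 in Foxp3-negative cells. The chemokine Ccl5 (3.20, 2.79–3.70) and the granzyme Gzma (3.28, 2.76–3.92) were higher in A20ZF7, and also in stromal cells, from 590 to 2,146 and from 225 to 1,046 CPM.

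**Figure D5:**
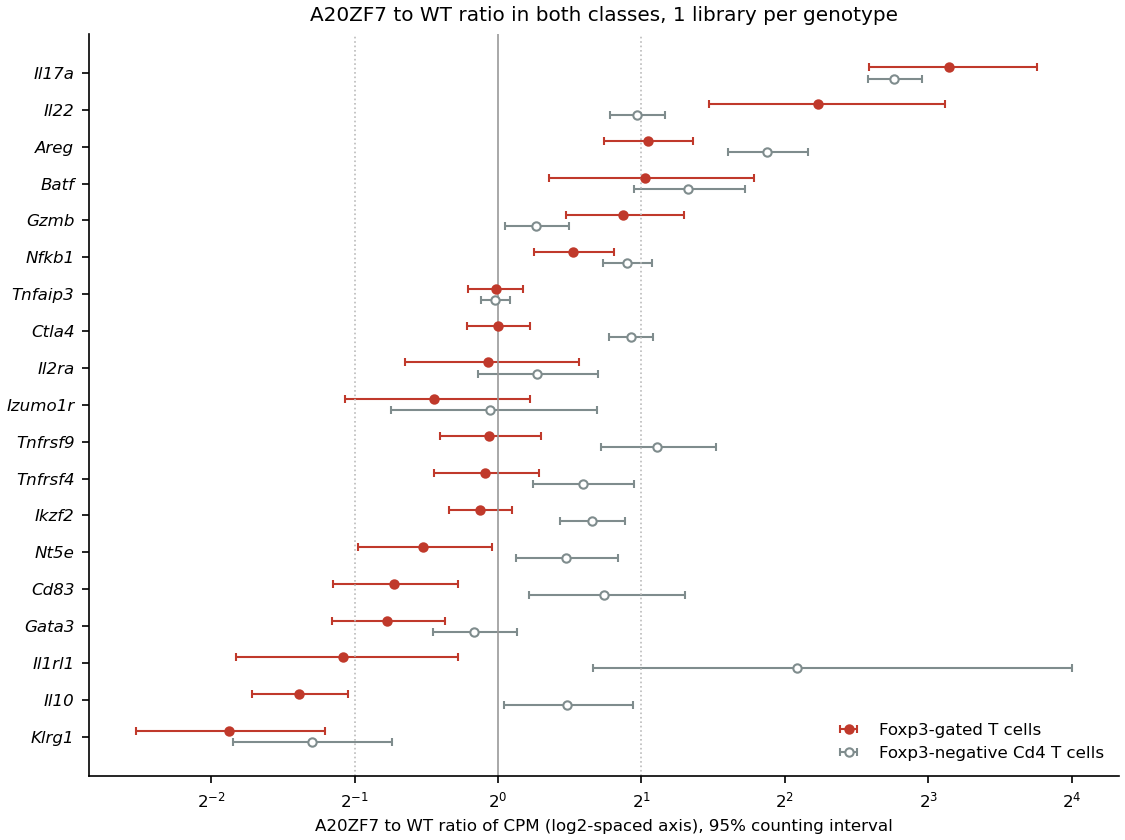
A20ZF7 to WT ratio of CPM (log-spaced horizontal axis) of 19 genes in Foxp3-gated T cells (filled) and Foxp3-negative Cd4 T cells (open), 1 library per genotype. Bars are 95% intervals for counting error, and dotted lines mark 2-fold. Il10 lies at 0.38 in gated and 1.39 in Foxp3-negative cells, and Ikzf2, Tnfrsf4, Tnfrsf9 and Ctla4 lie between 0.92 and 1.0 in gated cells.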

How the data were processed

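The deposited values are counts of UMIs for each gene in each barcode, before any filter on cells. The authors aligned the reads to mm10, and their processing notes name Cell Ranger 7.1, R 4.3.3 and Seurat 4.3, while the file headers name Cell Ranger 8.0.0 for genes and 7.1.0 for antibodies. Only the 31,950 gene IDs in both gene lists were used. Counts were read with Python 3.11.15. Hashtags were called by HTODemux (Seurat 5.3.0, quantile 0.99), and Scrublet scores (scanpy 1.11.5) served an alternative, since doublets were otherwise left in. A score above 0.25 marked 1.71% of WT and 1.37% of A20ZF7 passing barcodes. Class tests used edgeR 4.0.16 on summed UMIs (TMM, filterByExpr, quasi-likelihood, source as a block), with DESeq2 1.42.0 as an alternative. Intervals are exact (binomial, Poisson or conditional) at 95%, and that of a ratio of shares uses the log method. Alternatives changed filters, the Foxp3 minimum, depth, normalization, doublets, sources and free RNA. The class test was tested on simulated data with the same spread for all genes and no source effect, where it called 0.165% of unchanged genes.

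Stromal cells hold at least 5 UMIs over the stromal genes, and CD8 T cells at least 2 of Cd8a and Cd8b1. The genes named are the markers, examples of every list, all class calls, the 8 largest and 8 smallest genotype ratios, and the antibodies past the threshold with CD4, CD25, CD8a and TCRchain. Rankings left out gate genes and Cd4, haemoglobin, Gm, Rik, sex-linked and mitochondrial genes, ribosomal proteins, immunoglobulins, T cell receptor segments and symbols that differ between the gene lists, and Ighm was named after its value was seen. Members and lists were chosen with earlier results of these data known. One gene of a list and the results that used it are not reported here.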

Additional observations from a re-analysis of the deposited data

Results flagged for a closer look

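In 4 genes the A20ZF7 to WT ratio lay below 1 in Foxp3-gated cells and above 1 in Foxp3-negative Cd4 T cells, with both counting intervals clear of 1. The difference between the classes was not tested, since each genotype is 1 library. The share of all genes with this pattern is not given here, so the count of 4 has no background to be set against. Il10 had ratios of 0.382 (0.304–0.483) and 1.39 (1.03–1.92), from 554 to 212 CPM in gated and from 65.8 to 91.7 CPM in Foxp3-negative cells. Il1rl1 had 0.473 (0.282–0.826) and 4.25 (1.59–16.0), and 11 of its 20 gated WT UMIs came from mouse 1. Cd83, an activation marker, had 0.606 (0.451–0.824) and 1.67 (1.16–2.47), and Nt5e had 0.697 (0.509–0.974) and 1.39 (1.09–1.78). The log2 ratio in gated cells, -0.72 for Cd83 and -0.52 for Nt5e, was -0.087 and -0.21 with at least 1,000 UMIs per cell, and that of Nt5e was -0.21 without WT mouse 1 and -0.13 with 2 Foxp3 UMIs. In all 4 the gated cells stayed above the Foxp3-negative ones in A20ZF7.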

How the results depend on the processing

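Shallow cells, 134 of them in WT, limit every value, and the cause of the shifts given here was not tested. The share ratio of 2.93 was 1.87 among T cells with a Cd4 UMI, 2.72–2.78 without either WT mouse, and above 1 in every alternative run. The class counts (5 higher, 2 lower) were 8 and 2 by DESeq2, 11 and 5 with DESeq2 size factors, 49 and 65 with no filter, 14 and 9 with 2 sources, 44 and 71 with no Cd4 UMI needed, 4 and 12 with one needed in both classes, 7 and 5 at 1,000 UMIs, and 24–37 and 21–36 with 1 source left out. Without the replicate block for the source they were 4 and 0. Chosen after seeing the data, removal of Scrublet scores above 0.25 gave 13 and 5, and 2 Foxp3 UMIs together with 2 sources gave 11 and 20. Fabp1 and Fabp2 lost their calls without the block (adjusted p = 0.716 and 0.999) and with 2 sources (1.0 and 0.152). The 4 higher genes without the block were Ikzf2, Izumo1r, Tnfrsf4 and Tnfrsf9, so Ighm lost its call there too. No paired analysis was possible between genotypes because each is 1 library. Genes past 2-fold (52 higher, 56 lower) were 74 and 46 at 1,000 UMIs, 184 and 3 with 2 Foxp3 UMIs, 88 and 53 without mitochondrial and ribosomal protein genes, 155 and 167 at 50 CPM, 85 and 36 without barcodes of 2 hashtags, 319 and 91 with free RNA subtracted (its estimate was 102% of the UMIs in WT, which is not possible, and 78.4% in A20ZF7, so nothing is read from that setting), 51–67 and 40–42 with 1 WT mouse left out and, chosen after seeing the data, 106 and 15 with only WT cells of 1 hashtag. Antibodies (2 and 0) were 9 and 1 with no Cd4 UMI needed. Thinned to 500 UMIs, also chosen after seeing the data, Ikzf2 was held by 39.6% of WT and 35.4% of A20ZF7 gated cells, Il10 by 21.6% and 11.3%, and Areg by 14.9% and 33.0%. Signs turned in the class log2 fold change of Ccr9 (-0.0112 without WT mouse 1, -0.38 with Cd4 in both classes, -0.0473 with 2 Foxp3 UMIs and 2 sources), Icos (-0.0332 with no filter, from -0.0151 (without WT mouse 1) to 0.151 (without A20ZF7) with 1 source left out, -0.39 with Cd4 in both classes, -0.13 at 1,000 UMIs), Maf (-0.0222 with Cd4 in both classes), Tnfaip3 (0.0458 at 1,000 UMIs) and the CD4 antibody (0.46 with no Cd4 UMI needed). Among ratios past 2-fold they turned in the log2 genotype ratio of Egr1 (0.87) and Mki67 (-0.68) with 2 Foxp3 UMIs, Rbp2 (1.15) and Reg3b (0.61) with WT cells of 1 hashtag, and Reg3b (0.54, with 2 WT UMIs left) without the WT cell with most epithelial UMIs. The unusable free RNA setting gave Mki67 at -2.62 and Top2a at -1.05. Among smaller ratios, 2 Foxp3 UMIs turned Ikzf2 (0.48), Il2ra (1.27), Ctla4 (-0.34), Tnfrsf9 (0.33), Ccr9 (0.72) and Itgae (-0.65), and 1,000 UMIs turned Ikzf2 (0.14), Tnfrsf4 (0.33) and Tnfrsf9 (0.36). Apart from the free RNA setting, further turns were within the counting intervals. With every setting included, the log2 ratio of Il10 ranged from -1.78 to -0.78, of Areg from 0.81 to 1.35 and of Il1rl1 from -2.18 to -0.25.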

Other observations

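Gated cells with and without amphiregulin differed in other genes, and Il1rl1 and Tnfrsf9 were higher in those with it in both libraries. In A20ZF7 the 483 cells with an Areg UMI, against the 472 without, had 1.77 times the Tnfrsf4 (1.45–2.17), 1.77 times the Il2ra (1.28–2.48), 1.60 times the Tnfrsf9 (1.32–1.94), 2.77 times the Il1rl1 (1.51–5.44) and 2.33 times Ikzf4 (Eos, a partner of Foxp3, 1.32–4.31). In WT the 35 cells with Areg had 3.59 times the Il1rl1 (1.33–10.6), 1.88 times the Tnfrsf9 (1.18–3.0) and 0.63 times the Ctla4 (0.44–0.87) of the 99 without. Ctla4 lay on the other side in A20ZF7 (1.14, 1.02–1.27), and in WT the ratios of Tnfrsf4 (1.24, 0.75–2.03) and Il2ra (1.93, 0.85–4.37) had intervals that held 1. Cells with an Areg UMI were also deeper (median 1,253 against 1,034 UMIs in A20ZF7).

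Itgae, the integrin CD103 that binds epithelium, was at 162 CPM in gated and 67.8 CPM in Foxp3-negative cells of A20ZF7 (2.40, 1.97–2.92), and at 88.8 and 64.5 CPM in WT (1.38, 0.74–2.43). WT mouse 2 went the other way, at 50.3 CPM in gated and 74.5 CPM in Foxp3-negative cells, and Itgae did not pass the edgeR test over the 3 sources (adjusted p = 0.443). Cells are not replicates, and all these intervals cover counting error only.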
